A study of Mus musculus with 41 samples.

Results

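Interferon response genes are the genes that cells switch on after interferon binds its receptors. A set of 35 such mouse genes was fixed by name, with no measured value in the rule but with earlier results of these data known, and was followed through single cells of the small intestine in experimental food allergy and through cultured group 2 innate lymphoid cells (ILC2s) given a neuropeptide. All 35 were listed in both deposited tables, among 19221 genes of the single-cell table and 23420 of the bulk table. By role they were 4 transcription factors (Irf1, Irf7, Irf9, Stat2), 3 nucleic acid sensors (Ifih1, Dhx58, Zbp1), Isg15 and its protease Usp18, 3 Ifit genes, 3 Oas genes, the membrane proteins Bst2 and Ifitm3, 4 enzymes of nucleotides and RNA (Samhd1, Isg20, Rsad2, Cmpk2), 6 interferon-inducible GTPases (Mx1, Gbp2, Gbp3, Igtp, Irgm1, Ifi47) and 8 others (Ifi27l2a, Ifi35, Ifi44, Rtp4, Xaf1, Trim30a, Parp14, Lgals3bp).

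All samples came from female BALB/cJ mice, and the control and cultured samples were labelled wild type. Droplet libraries of 10-week-old animals were made from cells of the small-intestinal lamina propria or of Peyer's patches, from untreated controls and from mice in which food allergy had been provoked with ovalbumin. The lamina propria gave 3 control and 3 food allergy libraries of a fraction that the labels call nonTB, a name they do not define, and 1 control and 1 food allergy library of an IgDLow fraction. Peyer's patches gave 10 control libraries and 9 food allergy libraries with cells. In the bulk experiment, KLRG1+ ILC2s of 8-week-old mice were sorted 250 to a well and cultured for 3 hours in medium holding 100 ng/ml each of the growth cytokines IL-2 and IL-7. To this base medium was added nothing (3 libraries), IL-25 at 100 ng/ml (3), α-calcitonin gene-related peptide (CGRP) at 0.4 µg/ml (4) or both (3). The labels do not say which libraries came from separate animals, so the p-values below measure the spread between libraries, which may be technical.

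Interferons act in a short chain. Type I interferon binds Ifnar1 and Ifnar2, and interferon gamma binds Ifngr1 and Ifngr2. Type I interferon leads to a complex holding Stat2 and Irf9 that binds an interferon-stimulated response element (ISRE) in the promoters of its targets, and interferon gamma acts through gamma-activated sites (GAS). Irf7 is both a target and an amplifier of the type I response, and plasmacytoid dendritic cells (pDCs), the main producers of type I interferon, hold it before any stimulus. In the gut, low constant interferon signalling is fed by the microbiota and by viruses of the lumen.

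The response element is visible in the promoters of the members themselves. RefSeq promoters of the GRCm38.p6 build, each 300 bases long with 250 before and 50 after the start site, were matched for 28 of the 35 members. The ISRE core, a GAAA followed after any 2 bases by another GAAA, searched on both strands, was present for 15 of the 28 (53.6%) and for 3.99% of all 27025 genes with a promoter. The GAS core TTCNNNGAA, likewise on both strands, was present for 9 members (32.1%) and for 9.55% of all genes; the motifs can overlap. Windows with a core are shown for called members (Isg15, Bst2, Ifit1, Gbp2, Igtp, Oas1a) and, for comparison, for Stat2 and Rsad2, which had no call. The called members Irf7, Irf1, Ifi44, Ifi47 and Samhd1 had no ISRE core, Ifitm3, which had 2, is not shown, and the called members Ifi27l2a and Usp18 were not matched. Each is read on the gene's own strand, 5′ to 3′, with the ISRE core in capitals, so a core lying on the opposite strand reads as a pair of TTTC.
Isg15, chr4:156200865-156200906, minus strand: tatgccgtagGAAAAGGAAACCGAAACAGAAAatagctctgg
Bst2, chr8:71537577-71537612, minus strand: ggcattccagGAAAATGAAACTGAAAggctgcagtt
Ifit1, chr19:34640775-34640823, plus strand: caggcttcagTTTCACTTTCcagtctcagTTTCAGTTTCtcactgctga
Gbp2, chr3:142620594-142620623, plus strand: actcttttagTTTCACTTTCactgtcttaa
Igtp, chr11:58199512-58199541, plus strand: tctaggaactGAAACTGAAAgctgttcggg
Oas1a, chr5:120907520-120907555, minus strand: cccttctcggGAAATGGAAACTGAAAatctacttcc
Stat2, chr10:128270266-128270295, plus strand: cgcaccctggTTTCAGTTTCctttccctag
Rsad2, chr12:26456553-26456582, minus strand: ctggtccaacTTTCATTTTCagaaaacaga
In Isg15 the cores ran into each other, and in Ifit1 a pair of cores stood apart by a few bases. A match describes letters in a window and no binding was measured here.

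The single-cell table held 58067 cells, of which 45088 (77.6%) were assigned to 1 of 21 cell types by counting detected marker genes, none of them a member. The types are called pDC-like, ILC2-like and so on. Lamina propria nonTB libraries held 2285 to 2822 cells with median depths of 1829 to 3441.5 UMIs (unique molecular identifiers, 1 per captured RNA molecule), and Peyer's patch libraries 379 to 3891 cells at 2682 to 3975 UMIs. Across libraries of 1 run, 949 cells (1.63%) shared a barcode. Tests were run on UMI sums per cell type, over libraries in the lamina propria and over run dates in Peyer's patches, with edgeR's quasi-likelihood test and Benjamini-Hochberg adjustment over all genes of a cell type at a threshold of 0.05. Levels are counts of a gene's UMIs per 1000000 UMIs of the cell type in a library or run (CPM), given as mean ± SD, and sums over a cell type cannot tell fewer expressing cells from less RNA per cell.

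In control libraries the members were strongest in a few cell types. Summed over all members, the lamina propria level was highest in stromal-like cells (10474 CPM), followed by pDC-like (6705) and macrophage-like cells (6297), and lowest in plasma cell-like cells (994). In Peyer's patches it was highest in endothelial-like (7291), macrophage-like (6793) and pDC-like cells (6483) and lowest in germinal centre B cell-like cells (691). Such sums are dominated by abundant members such as Bst2, Ifitm3 and Ifi27l2a. The median log2 difference of the tested members from the mean of the other types was 2.14 in lamina propria macrophage-like, 1.11 in stromal-like and 0.14 in pDC-like cells. In Peyer's patches it was 1.91 in endothelial-like, 1.51 in macrophage-like and 0.30 in pDC-like cells. Of the 22 members tested in lamina propria controls, 16 were higher in macrophage-like cells than in the mean of the other types, against 22.8% of all genes. The matching counts were 10 in pDC-like cells (background 28.8%), 9 in stromal-like cells (19.9%) and 8 in ILC2-like cells (19%). In cDC1-like cells, the dendritic cells that cross-present antigen, 8 were higher, a share near the 28.3% of all genes, 5 were lower and the median log2 difference was -0.34. Of the 33 members tested in Peyer's patch controls, 23 were higher in endothelial-like cells (background 17.9%), 16 in macrophage-like cells (8.47%) and 15 in pDC-like cells (22.9%). The reverse held in B cells, where 19 members were lower in germinal centre B cell-like cells (background 18%) and 13 in B cell-like cells (9.9%). The cells of both tissues were processed on different run dates, so tissue and run date cannot be told apart and levels are given side by side.

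**Figure D1:**
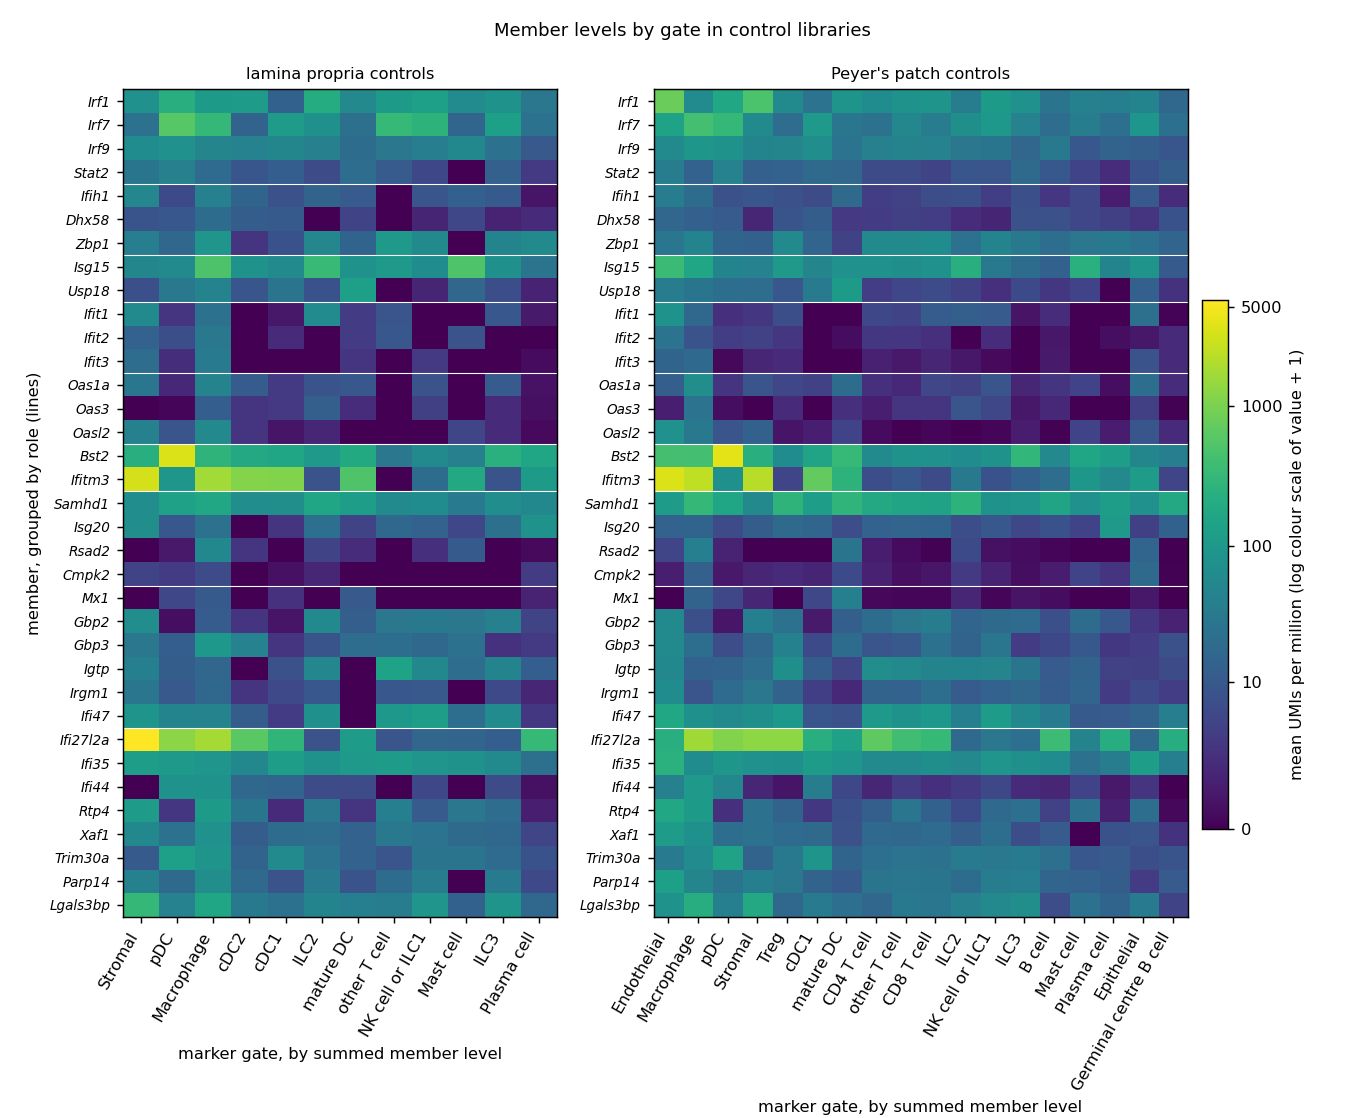
Mean level of each member (vertical axis, grouped by role) in each marker-defined cell type (horizontal axis, ordered by the summed level of the members) in control libraries, as CPM on a log colour scale of the value plus 1. Bst2 in pDC-like cells and Ifi27l2a and Ifitm3 in stromal-like, endothelial-like or macrophage-like cells are the brightest fields. Irf7 is brightest in pDC-like cells of the lamina propria and in macrophage-like cells of Peyer's patches.

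Single members peaked in different cell types. Bst2, the tetherin that holds budding virus at the cell surface and a classical surface marker of mouse pDCs, stood at 3621 ± 379 in lamina propria pDC-like cells (n = 3), 13.2 times its level in macrophage-like cells, which came next at 275. In Peyer's patches it stood at 3916 ± 579 in pDC-like cells, 8.80 times the 445 of endothelial-like cells. Ifitm3, which blocks fusion of viruses in endosomes, was highest in lamina propria stromal-like cells (3218 ± 603) and in Peyer's patch endothelial-like cells (3525 ± 109), with macrophage-like cells next in both (1702 and 2464). Ifi27l2a, a small hydrophobic interferon-induced protein, reached 5437 ± 1234 in lamina propria stromal-like cells and 1776 ± 126 in macrophage-like cells, and was lowest in ILC2-like cells at 8.06. Those extremes differed by far more than the spread between libraries.

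Irf7 was at 588 in lamina propria pDC-like cells, 329 ± 62.4 in other T cell-like and 313 in macrophage-like cells, and lowest in cDC2-like cells at 14.5. In Peyer's patches macrophage-like cells had 424 ± 221 and pDC-like cells 310, an order that lies within the spread. Irf1, a transcription factor that interferon gamma induces strongly, was highest in pDC-like (234 ± 22.04) and ILC2-like cells (208) of the lamina propria, 2 neighbours that did not differ beyond their spread, and in Peyer's patch endothelial-like (785 ± 427) and stromal-like cells (482). Isg15, a ubiquitin-like modifier, had 516 ± 563 in lamina propria mast cell-like cells, 503 in macrophage-like and 334 in ILC2-like cells, and was lowest in plasma cell-like cells (26.9). Usp18, which removes Isg15 from proteins and dampens the receptor, was highest in mature dendritic cell-like cells, at 132 ± 50.6 in the lamina propria and 109 ± 81.4 in Peyer's patches, 2.87 times the next type in each. Isg20, an RNA exonuclease, was highest in Peyer's patch plasma cell-like cells (107 ± 25.6, 5.70 times the next), and Rsad2, the antiviral enzyme viperin, in lamina propria macrophage-like cells (55.6 ± 29.8, 5.24 times the next).

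Other members had no single leading type or led elsewhere. Ifi35, a partner of Nmi, had 123 in lamina propria stromal-like, 122 in cDC1-like and 113 in other T cell-like cells, which did not differ beyond their spread, and 23.2 in plasma cell-like cells. Samhd1 had 176 ± 26.8 in macrophage-like and 160 in ILC2-like cells of the lamina propria, and 314 ± 26.8 and 286 in macrophage-like and mature dendritic cell-like cells of Peyer's patches. Lgals3bp, a secreted scavenger-receptor protein, was highest in lamina propria stromal-like (318 ± 83.7) and Peyer's patch macrophage-like cells (215 ± 27.2). Among the GTPases, Igtp led in lamina propria other T cell-like cells (149 ± 61.3), Gbp3 in macrophage-like cells (99.3 ± 35.6) and Ifi47 in NK- or ILC1-like cells (119 ± 63.9). In Peyer's patches the RNA-binding Ifit1 and Ifit2 led in endothelial-like cells (84.6 ± 40.9 and 26.0 ± 14.98) and Oas1a in macrophage-like cells (71.2 ± 41.4), 3.27 to 3.68 times the next type.

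Food allergy was set against control in 10 cell types of the lamina propria nonTB libraries. The members were lower in food allergy in several cell types at once, led by Irf7, Isg15 and Ifi27l2a. Of 350 member and cell type pairs, 127 had enough UMIs to be tested. Of these, 23 fell (18.1%), over 11 members, against 1.31% of all gene and cell type pairs, and 1 rose, against 2.37%. Ifit2, Ifit3, Ifih1, Oas3 and Oasl2 were below the filter in every cell type.

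**Figure D2:**
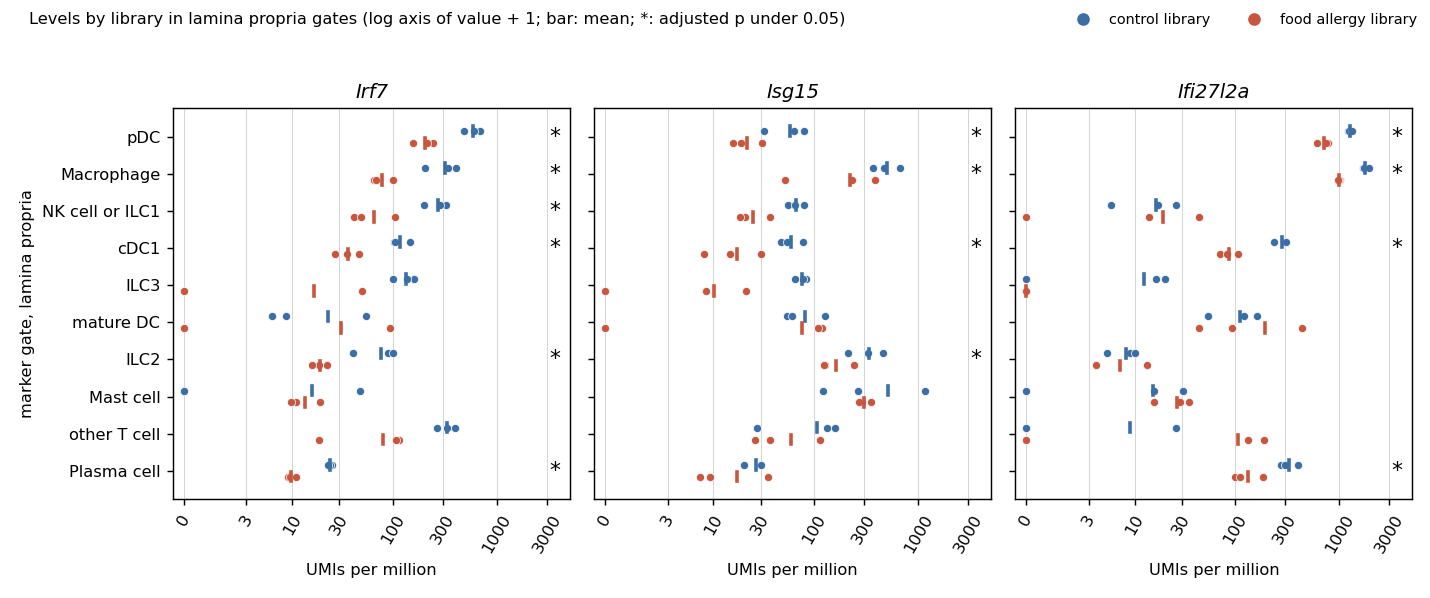
Level of Irf7, Isg15 and Ifi27l2a (horizontal axes, CPM on a log axis of the value plus 1) in each of 10 lamina propria cell types (vertical axis). Each dot is 1 of 3 control or 3 food allergy libraries, bars are means, and stars mark an adjusted p under 0.05. Irf7 in pDC-like cells lies at 483 or more in controls and at 243 or less in food allergy.

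Irf7 (chr7:141262706-141266481, minus strand, GRCm38) fell in 6 of the 8 cell types in which it was tested. In pDC-like cells its level was 685, 595 and 483 in the 3 controls and 243, 214 and 155 in the 3 food allergy libraries. The mean went from 588 ± 101 to 204 ± 44.8, a log2 change of -1.48 (SE 0.10, adjusted p = 2.61e-08). The groups did not overlap, and the gap between them was wider than the range of the food allergy libraries. In macrophage-like cells the controls had 335, 403 and 203 and the food allergy libraries 66.1, 100.1 and 68.3 (log2 change -1.85, SE 0.24, adjusted p = 0.000196). Cells like natural killer (NK) cells or ILC1s had 321, 285 and 200 against 41.8, 104 and 49.1 (log2 change -1.96, SE 0.26, adjusted p = 0.000114). In both types every control library again lay above every food allergy library.

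In cDC1-like cells Irf7 went from 117 ± 24.5 to 36.6 ± 9.93 (log2 change -1.64, SE 0.22, adjusted p = 0.000277). ILC2-like cells showed 89.4, 99.5 and 40.7 in controls and 18.6, 16.1 and 22.4 in food allergy (log2 change -1.89, SE 0.39, adjusted p = 0.000908). Plasma cell-like cells, where the gene is low, had 25.4, 24.0 and 22.9 against 8.90, 9.41 and 10.8 (log2 change -1.14, SE 0.12, adjusted p = 0.00337). The 6 types with this fall included lymphoid, myeloid and antibody-secreting cells, with control levels of Irf7 from 24.1 to 588. Siglech, a receptor of pDCs, and Bst2 were read beside Irf7 in the pooled control libraries. Siglech was a marker used to assign pDC-like cells, so its low level in other types was partly set by that assignment. Bst2 was not a marker. The part of RNA from pDCs in the values of other types was not tested. In these libraries Irf7 in NK- or ILC1-like cells was 47.2% of the pDC-like level, while Siglech was 0.692% and Bst2 1.56% of it. In macrophage-like cells the shares were 52.9% for Irf7, 0.796% for Siglech and 7.32% for Bst2. The same shares in ILC2-like cells were 14.002%, 0.393% and 2.75%. Plasma cell-like cells had 4.32% for Irf7, 0.463% for Siglech and 4.51% for Bst2.

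The other transcription factors moved less. Irf1 fell in 1 of 8 cell types, the ILC2-like cells, from 218, 258 and 148 in controls to 33.4, 53.6 and 14.9 in food allergy (log2 change -2.41, SE 0.26, adjusted p = 6.28e-08). That was the deepest fall among the calls of all members, and the groups did not overlap. In pDC-like cells Irf1 stood at 209, 244 and 249 against 192, 195 and 132, with no call. Irf9, the DNA-binding partner of Stat2, had a median log2 difference of -0.84 over 6 cell types with none called (lowest adjusted p = 0.117). Stat2 in pDC-like cells was 43.6, 51.1 and 32.3 in controls and 41.1, 38.3 and 59.3 in food allergy, values that overlapped.

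Isg15 (chr4:156199424-156200818, minus strand, GRCm38) fell in 4 of 9 cell types. In pDC-like cells the libraries had 80.1, 63.3 and 32.8 in controls and 31.2, 19.1 and 15.98 in food allergy (log2 change -1.37, adjusted p = 0.00289), and in cDC1-like cells 78.2, 47.2 and 54.1 against 14.8, 30.1 and 7.83 (log2 change -1.70, adjusted p = 0.00657). In both types the groups stood apart, in pDC-like cells by a small margin. In ILC2-like cells (213, 457 and 331 against 126, 123 and 242; log2 change -0.93, adjusted p = 0.00476) and in macrophage-like cells (468, 672 and 370 against 382, 231 and 52.5; log2 change -1.29, adjusted p = 0.0195) the highest food allergy library lay within the controls. Calls were lost without 1 library, with the adjusted p rising to 0.112 in cDC1-like cells without control 1 or food allergy 1, to 0.179 in ILC2-like cells without control 2 or food allergy 1, to 0.198 in macrophage-like cells without control 2 or food allergy 2 and to 0.0625 in pDC-like cells without control 1. Usp18 was tested in 3 cell types with a median difference of -0.60 and none called.

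Ifi27l2a (chr12:103442167-103443680, minus strand, GRCm38) fell in 4 of 6 cell types, with clear gaps between the groups. In cDC1-like cells it had 235, 298 and 311 in controls and 70.5, 105 and 84.2 in food allergy (log2 change -1.66, adjusted p = 7.21e-06). In plasma cell-like cells 277, 302 and 403 stood against 99.8, 111 and 185 (log2 change -1.18, adjusted p = 0.000748). The falls were smaller in pDC-like cells, from 1256 ± 66.3 to 713 ± 87.0 (log2 change -0.77, adjusted p = 4.62e-06), and in macrophage-like cells, from 1776 ± 126 to 996 ± 21.3 (log2 change -0.75, adjusted p = 0.00227). Ifi44, a cytoplasmic protein induced by type I interferon, fell in pDC-like cells, from 91.9, 96.6 and 61.3 to 41.1, 41.5 and 15.98 (log2 change -1.29, adjusted p = 0.000442). Xaf1, an antagonist of an inhibitor of apoptosis, had a median difference of -1.15 over 5 cell types with none called (lowest adjusted p = 0.0824).

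ILC2-like cells held the most calls of any type. There 8 of the 13 members tested fell, with a median log2 difference of -1.01, while 6.86% of all genes fell. Ifit1, which binds viral RNA lacking cap methylation, had 54.6, 63.3 and 71.2 in controls and 18.6, 8.04 and 14.9 in food allergy (log2 change -2.06, SE 0.47, adjusted p = 0.00213), with no overlap. The GTPases Gbp2 (60.4 ± 34.7 to 17.2 ± 5.95, log2 change -1.71, adjusted p = 0.0134), Igtp (52.8 ± 15.04 to 14.2 ± 13.5, log2 change -1.84, adjusted p = 0.0164) and Ifi47 (75.0 ± 34.1 to 24.5 ± 18.7, log2 change -1.52, adjusted p = 0.00413), which attack vacuoles that hold microbes, fell as well. For Gbp2 and Ifi47 control 3, at 20.4 and 35.6, lay within the food allergy range, while for Igtp the groups stood apart (35.6 or more against 29.7 or less). Bst2 fell from 103 ± 24.1 to 50.3 ± 10.4 in these cells (log2 change -0.87, adjusted p = 0.0275). Igtp and Ifi47 were lost without food allergy 2 (adjusted p up to 0.133 and 0.0732), Gbp2 without food allergy 1 or 2 (up to 0.0950), and Bst2 without food allergy 1, control 1 or control 3 (up to 0.155). Bst2 in pDC-like cells, its main site, was 3472, 3340 and 4052 against 3137, 3283 and 3266, with no call.

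The remaining cell types gave these counts. In cDC1-like cells 4 of 14 members fell (all genes 1.07%), in pDC-like cells 4 of 20 (0.735%), in macrophage-like cells 3 of 19 (0.963%), in plasma cell-like cells 3 of 24 (1.03%) and in NK- or ILC1-like cells 1 of 11 (0.834%). None of 6 fell in ILC3-like cells (0.0396%), of 13 in mast cell-like cells (0.803%), of 6 in mature dendritic cell-like cells (0%) or of the 1 in other T cell-like cells (0.456%), all by edgeR. Large log2 differences without a call included the lowest values of Rtp4 (-2.42), Irf9 (-1.91), Gbp3 (-1.87) and Parp14 (-1.81). They also included Irf7 (-2.71) and Isg15 (-2.85) in ILC3-like cells and Irf7 (-2.18) in other T cell-like cells. Pooled UMIs of Irf7 were few there. They were 73 in controls and 6 in food allergy in ILC3-like cells, and 34 and 8 in other T cell-like cells. The median log2 difference of the members was -0.75 in macrophage-like, -0.53 in cDC1-like, -0.45 in plasma cell-like and -0.44 in pDC-like cells. It was -0.87 in mast cell-like, -0.42 in ILC3-like, -0.10 in NK- or ILC1-like and -0.06 in mature dendritic cell-like cells. In each of these types all genes had a median near 0. By role, the medians were -1.01 for the transcription factors, -1.10 for Isg15 and Usp18, -0.78 for the sensors, -0.64 for the mixed group, -0.21 for the membrane proteins, -0.17 for the GTPases and 0.08 for the enzymes of nucleotides and RNA. Among these enzymes, Samhd1, which destroys the nucleotides that viruses need, was tested in 9 cell types without a call, and in pDC-like cells had 170, 127 and 116 against 168, 107 and 119. Mx1, a GTPase whose allele in BALB/c mice is defective, was tested in plasma cell-like cells alone (log2 difference -1.79, adjusted p = 0.284). Zbp1, a sensor of Z-form nucleic acid, had 88.9 ± 24.7 and 37.0 ± 10.8 in macrophage-like cells (adjusted p = 0.0976).

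**Figure D3:**
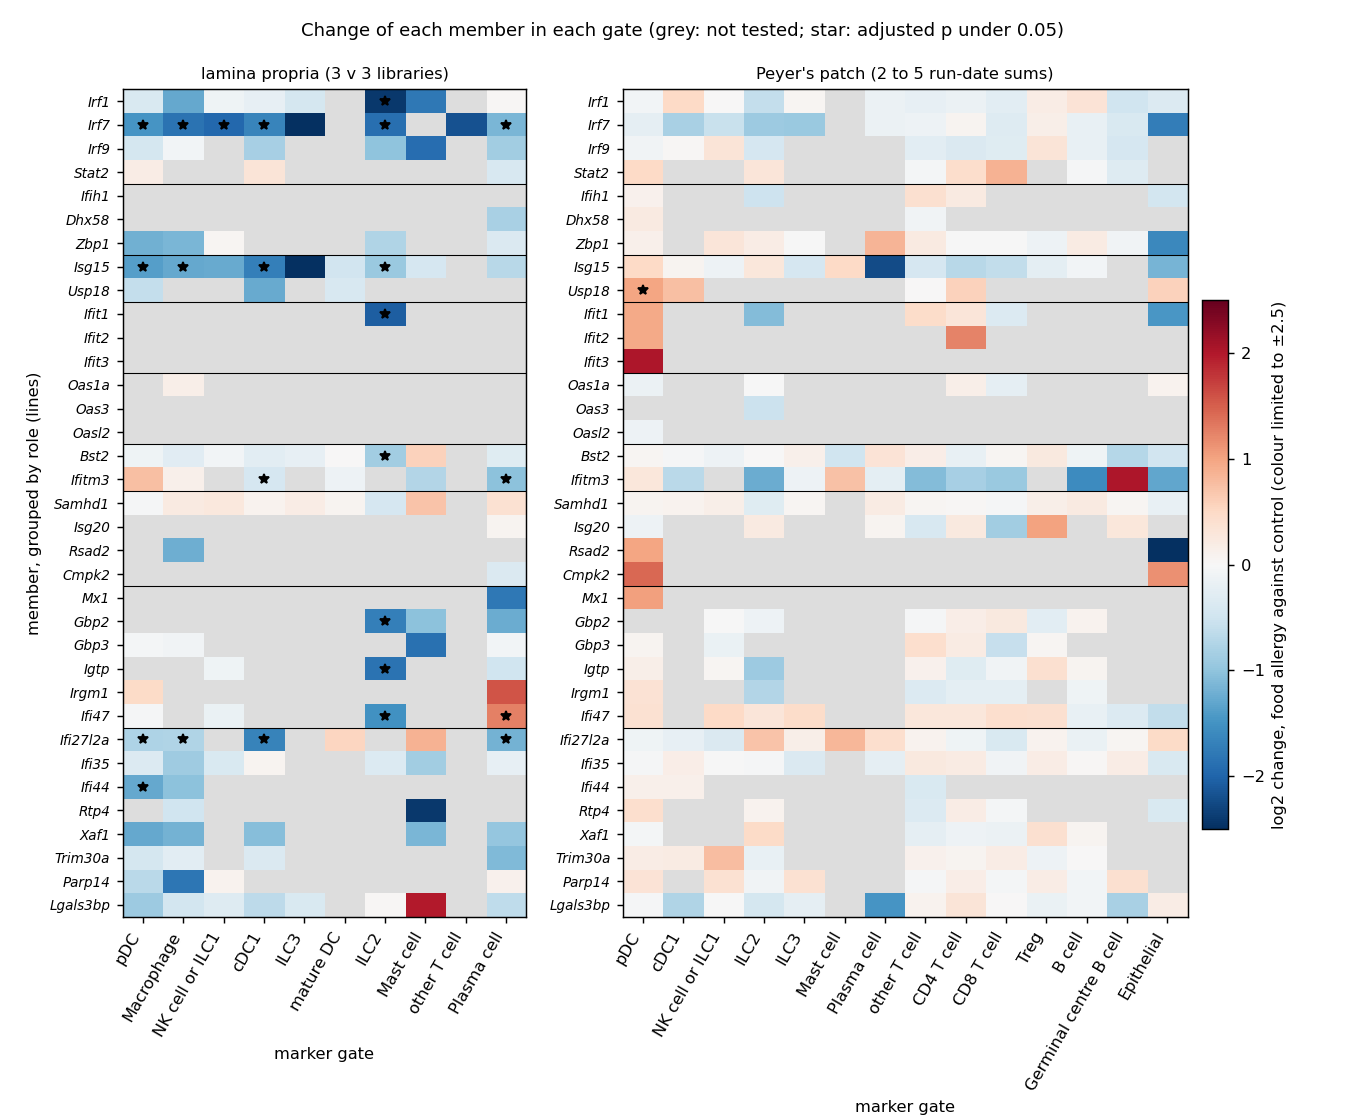
Log2 difference of each member (vertical axis, grouped by role) between food allergy and control in each cell type (horizontal axis), with colours limited to ±2.5, blue for lower and red for higher in food allergy. Stars mark an adjusted p under 0.05 and grey fields were not tested. The lamina propria panel (3 against 3 libraries) holds 23 blue stars and 1 red, and the Peyer's patch panel (2 to 5 run-date sums per group) 1 red star.

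In plasma cell-like cells Ifitm3 fell from 111 ± 39.5 to 46.8 ± 2.86 (log2 change -1.03, adjusted p = 0.0205), and in cDC1-like cells from 1093 ± 153 to 807 ± 202 (log2 change -0.42, adjusted p = 0.0301), where the groups overlapped. In pDC-like cells it had 92.9 ± 24.3 and 152 ± 91.5 (log2 difference 0.75, adjusted p = 0.0770). Ifi47 in plasma cell-like cells was the only call in the other direction, where 2.33% of all genes rose. Its controls had 3.15, 3.07 and 3.04 and the food allergy libraries 9.06, 8.35 and 3.59 (log2 change 1.26, adjusted p = 0.0446), so 1 food allergy library was close to the controls. The call of Ifi47 was lost when control 1 or 2 or food allergy 1 or 2 was left out (adjusted p up to 0.175), Ifitm3 in plasma cell-like cells without control 1 or food allergy 1 (up to 0.102), and Ifitm3 in cDC1-like cells without any 1 of the 3 controls or food allergy 1 or 3 (up to 0.175). All 23 falls were also lower within the first run date, which held 2 libraries of each group, and 22 of 23 within the second, which held 1 of each; these are the same 6 libraries that gave the calls, so the split is no independent support.

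Other measures moved with the condition in the same libraries. pDC-like cells made up 13.8% of cells in controls and 6.35% in food allergy, mast cell-like cells 0.747 ± 0.239% and 9.61 ± 1.63%, and neutrophil-like cells 0.148% and 1.41%. Within the pDC-like cells the summed level of the neutrophil markers went from 13.6 ± 6.08 to 322 ± 239 CPM and that of the mast cell markers from 6.87 to 63.6, while their own markers had 6908 and 7570. Within the ILC2-like cells the pDC markers had 190 and 110, the NK cell markers 25.0 and 111, and their own markers 7060 and 9467. In macrophage-like cells the neutrophil markers went from 116 to 275 and the mast cell markers from 6.58 to 87.0, and the mast cell markers went from 26.4 to 80.3 in cDC1-like and from 7.53 to 77.0 in plasma cell-like cells. In NK- or ILC1-like cells their own markers had 7164 and 11426, the ILC3 markers 602 and 250 and the pDC markers 288 and 181. The stress gene Hspa1a stood at 1.51 ± 2.61 in control and 202 ± 165 in food allergy ILC2-like cells. Fos, an early gene that dissociation can induce, went from 701 to 1446 in pDC-like cells but from 4101 to 1367 in ILC2-like and from 1308 to 822 in cDC1-like cells. The part of these measures in the falls of the members was not tested.

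The share of cells with a transcript of the set was also read at a fixed depth. Cells with at least 1000 UMIs were thinned to 1000 UMIs and the others were left out, while the shares before thinning are of all cells. In macrophage-like cells this kept 176 of 196 control and 173 of 203 food allergy cells. The share of them with at least 1 UMI of 11 strongly inducible members was 50.6 ± 8.94% in controls and 25.5 ± 18.5% in food allergy (71.3% and 42.1% before thinning). The shares were 14.9 ± 3.87% and 6.97 ± 1.67% in pDC-like cells (34.2% and 17.3% before) and 25.5 ± 5.41% and 15.9 ± 5.11% in ILC2-like cells (36.1% and 22.5% before). Plasma cell-like cells, the lowest type, had 3.59% and 1.92%. Mature dendritic cell-like cells had 11.8 ± 2.85% and 13.3 ± 7.13% (53.7% and 43.9% before). Peyer's patch pDC-like cells had 12.7 ± 3.02% in 7 control libraries and 13.6 ± 3.67% in 4 food allergy libraries (43.1% and 39.5% before), so in both the thinned mean was not lower in food allergy. No test was run on these shares.

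Upstream genes of the pathway were read from a fixed list. From a list of 52 genes of interferon production, receptors and signalling outside the 35, 30 were tested in at least 1 lamina propria cell type, and 5 of 166 pairs fell with none higher, where 1.31% of all pairs fell and 2.37% rose. Among these were the type I receptor chain Ifnar1 in ILC2-like cells (210 ± 2.36 to 129 ± 18.5, log2 change -0.57, adjusted p = 0.0447), the transcription factor Irf8 in macrophage-like cells (457 ± 79.3 to 222 ± 30.2, log2 change -0.95, adjusted p = 0.0154) and Irf8 and Il10rb in plasma cell-like cells (log2 changes -1.27 and -0.66). In pDC-like cells the RNA sensor Tlr7 had 79.5 and 78.4, and Ifnar1 250 and 300. Of 20 interferon genes 5 were listed in the table and 1 could be tested, Ifng in NK- or ILC1-like cells, with 79.8 against 104 in food allergy and no call (adjusted p = 0.768).

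The IgDLow fraction gave 1 library of each condition, made in the same run as the last nonTB libraries, so there is no replicate check and no test. Irf7 in its pDC-like cells was 481 CPM in the control (95% exact Poisson interval 450 to 514, counting error alone) and 147 (112 to 189) in food allergy. It was 261 (207 to 324) and 76.3 (47.2 to 117) in macrophage-like cells, and 380 (307 to 465) and 109 (70.0 to 162) in NK- or ILC1-like cells. These pairs of values are close to those of the nonTB libraries. Ifi27l2a was 306 and 54.5 in cDC1-like and 437 and 168 in plasma cell-like cells, and Irf1 in ILC2-like cells 133 (83.2 to 201) and 58.6 (36.3 to 89.6). Of the 23 pairs that fell in the nonTB fraction, 18 had at least 20 UMIs here, all 18 were lower in food allergy and 14 at least 2-fold lower. These pairs were picked by that fall. The same shares were not computed for all genes that fell in the nonTB fraction, so the 18 cannot be set against a background. Over all members, 37 of 144 pairs with at least 20 UMIs were at least 2-fold lower, against 6.29% of all genes, and 6 at least 2-fold higher, against 6%. Isg15 in plasma cell-like cells was higher in the food allergy library, at 37.8 (33.6 to 42.3) against 23.3 (19.9 to 27.1).

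In Peyer's patches no member fell past the threshold. Over 14 cell types 261 of 490 pairs were tested and all 35 members in at least 1 type. Of the 261 pairs, 131 had a negative log2 difference. Irf7 was negative in 11 of 13 types (median -0.32) and Ifitm3 in 9 of 12 (-0.75). Ifi47 was negative in 3 of 11 types (median 0.30) and Trim30a in 2 of 9 (0.10). By edgeR 0 fell, against 0.275% of all pairs, and DESeq2 called 0. In either direction 28 member pairs had an unadjusted p under 0.05 by edgeR, a count with no share of all genes to set it against. Irf7 in pDC-like cells had 230, 387, 313, 285 and 335 in the control sums of runs 1 to 5. The food allergy sums had 167, 384, 209 and 308 in runs 1, 3, 4 and 5, as run 2 held only 9 cells. Set against the control of the same run, food allergy was lower in runs 1, 4 and 5 and higher in run 3 (log2 difference -0.22, adjusted p = 1.00). The ranges of both conditions overlapped. Food allergy sums held 10 and 27 cells in runs 1 and 3 but 261 and 942 in runs 4 and 5. For Irf7 the lowest adjusted p in this tissue was 0.0974, in ILC3-like cells (45.2 and 29.998). Ifi27l2a was 1101 and 1046 in pDC-like, 221 and 161 in cDC1-like and 219 and 199 in plasma cell-like cells, and Irf1 in ILC2-like cells 37.9 and 38.4. Ifi44 in pDC-like cells was 53.9 and 64.1. In ILC2-like cells Irf7 had 71.6 and 37.4 (log2 difference -0.90, adjusted p = 0.250) and Ifitm3 31.9 and 9.63 (-1.25, adjusted p = 0.144), differences that did not pass. Trim30a, which restrains signalling from Toll-like receptors, had 30.5 and 47.6 in NK- or ILC1-like cells (adjusted p = 0.0955). For Isg15 the lowest adjusted p was 0.229, in plasma cell-like cells (48.2 ± 76.2 and 11.97 ± 10.4), for Ifi47 0.225, in NK- or ILC1-like cells (117 ± 56.0 and 144 ± 36.4), for Igtp 0.462, in ILC2-like cells (47.5 ± 24.2 and 17.3 ± 13.95), for Zbp1 0.523, in plasma cell-like cells (31.4 ± 10.9 and 53.5 ± 19.8), and for Rsad2 0.330, in epithelial-like cells (21 UMIs in controls and 0 in food allergy). The median log2 differences by role lay between -0.15 and 0.45 in this tissue, with -0.15 for the transcription factors and -0.03 for Isg15 and Usp18.

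The 1 call of 261 was higher, against 0.199% of all pairs and 0.181% of genes in pDC-like cells. Usp18 in pDC-like cells had 29.4, 0, 51.0, 9.98 and 17.2 in the control sums and 0, 209, 24.9 and 29.7 in the food allergy sums of runs 1, 3, 4 and 5 (log2 change 0.99, SE 0.24, adjusted p = 0.0182). A single sum of 27 cells, that of run 3, lay above all others, while the rest overlapped with the controls. The call was lost without run 1, 3, 4 or 5 (adjusted p up to 0.769). The same run 3 sum had Isg15 at 279, Mx1 at 59.8 and Ifit2 at 34.9. Among the pathway genes outside the members, 1 of 305 pairs rose, near the 0.199% of all pairs, the interferon gamma receptor chain Ifngr2 in ILC2-like cells (58.7 ± 16.9 to 119 ± 49.0, log2 change 0.99, adjusted p = 0.0180).

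Whether the food allergy effect differed between the tissues was tested directly in the 8 cell types that both held in number. Of 144 member pairs 4 had a more negative effect in the lamina propria, against 0.038% of all pairs, and 0 a more positive one, against 0.154%. They were Irf7 in pDC-like cells (difference of log2 changes -1.27, SE 0.20, adjusted p = 0.000742), Ifi44 in pDC-like cells (-1.42, SE 0.31, adjusted p = 0.0270), Ifi27l2a in cDC1-like cells (-1.51, SE 0.29, adjusted p = 0.0305) and Ifi27l2a in plasma cell-like cells (-1.66, SE 0.21, adjusted p = 0.00220). The shares of all genes with a more negative effect were 0.0549%, 0.0302% and 0.0651% in pDC-like, cDC1-like and plasma cell-like cells. Irf1 in ILC2-like cells, with a difference of -1.76, missed the threshold (adjusted p = 0.0536). Irf7 in pDC-like cells (adjusted p up to 0.0102) and Ifi27l2a in plasma cell-like cells (up to 0.0406) passed whichever lamina propria library or Peyer's patch run was left out. Ifi27l2a in cDC1-like cells missed the threshold without control 1, control 2 or food allergy 1 of the lamina propria (adjusted p up to 0.191), and Ifi44 without any 1 of the 6 lamina propria libraries (up to 0.169). The number of members called was 2 without lamina propria control 1 or control 2 and 7 without Peyer's patch run 4. For these counts there is no share of all genes to set them against.

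In cultured ILC2s the question was whether CGRP, a neuropeptide whose receptor ILC2s carry, changes their transcripts alone or with IL-25, the epithelial cytokine that activates them. Libraries held 6942740 to 21551900 expected counts, of which the ribosomal RNA gene Rn45s took 57.5% to 78.7%, and 29 of the 35 members passed the filter. Ifit3, Ifi27l2a, Oasl2, Mx1, Rsad2 and Cmpk2 did not. Levels are CPM of the expected counts, scaled by trimmed means of M values (TMM). All contrasts came from 1 edgeR model of the 13 libraries, and those that share a group are not independent.

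CGRP against base medium raised 2 members and lowered 0, against 1.08% and 0.405% of all genes. DESeq2 called 3, and 3 had an unadjusted p under 0.05. For such counts, here and in the contrasts below, there is no share of all genes to set them against. Samhd1 (chr2:157097533-157135265, minus strand, GRCm38) went from 26.4, 40.6 and 37.1 CPM in base medium to 85.0, 56.3, 84.9 and 94.9 with CGRP (log2 change 1.21, SE 0.28, adjusted p = 0.0226), with no overlap. Oas1a, which makes the 2-5A messenger that activates RNase L, went from 0.1499, 0.393 and 0.0476 to 2.25, 4.55, 2.45 and 5.14 (log2 change 4.34, SE 1.05, adjusted p = 0.0350), a low level but again apart. Ifit1 had 1.12, 1.57 and 1.81 against 27.8, 1.62, 11.8 and 7.25 (log2 difference 3.00, SE 0.78, adjusted p = 0.0511), with the second CGRP library at the base level. Both calls were lost when any of the 3 base libraries or the fourth CGRP library was left out (adjusted p up to 0.156 for Samhd1 and 0.161 for Oas1a). Rn45s took 57.5% and 59.0% of CGRP replicates 2 and 3 and 69.1% to 77.4% of the other CGRP and base libraries, and its part was not tested.

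**Figure D4:**
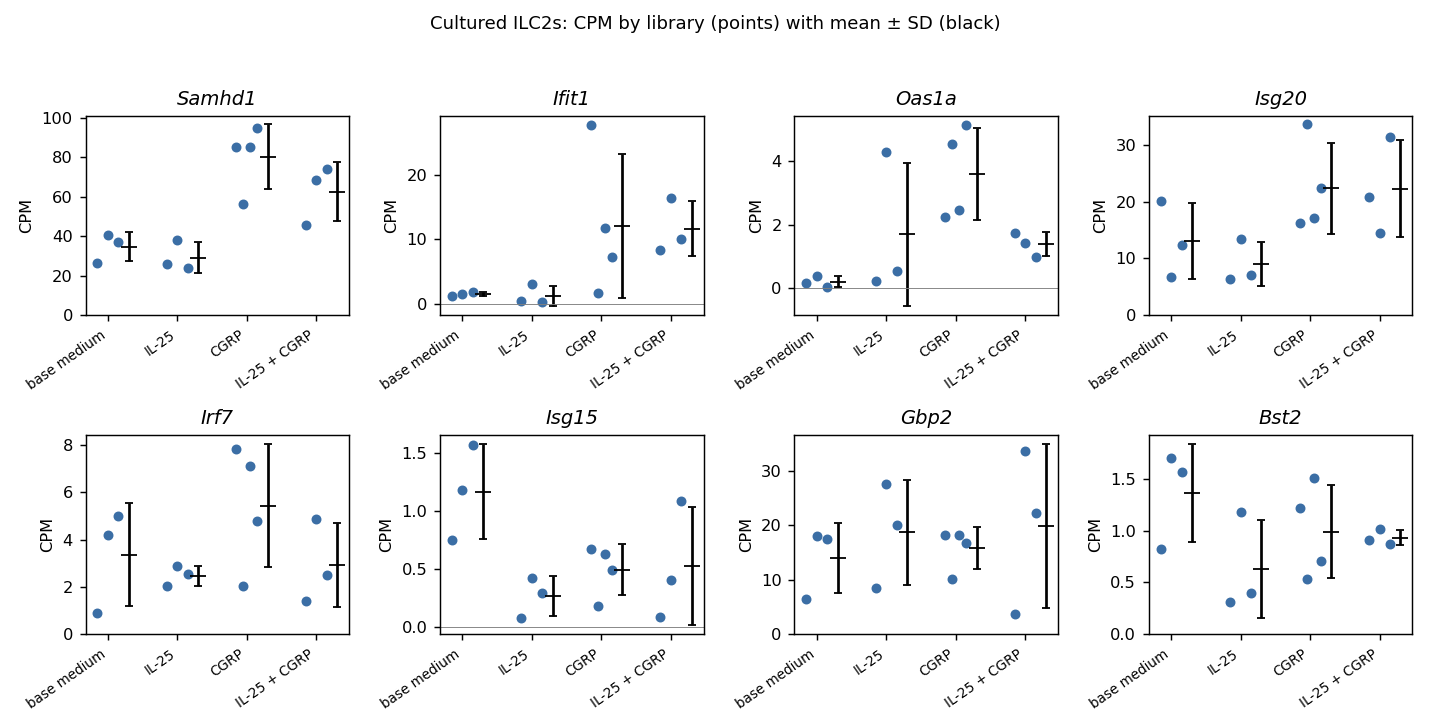
CPM of 8 members (vertical axes) in cultured ILC2s by medium (horizontal axis). Each dot is 1 library (3, 3, 4 and 3) and black marks are means ± SD. All 4 CGRP libraries of Samhd1 lie at 56.3 or more and the base libraries at 40.6 or less, while Irf7 and Gbp2 overlap.

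With IL-25 present, CGRP gave values in the same direction for some of these genes. Against IL-25 alone, 0 of 29 members passed by edgeR (all genes 0.502% higher, 0.13% lower), 5 had an unadjusted p under 0.05 and DESeq2 called 2. Samhd1 was 25.7, 37.9 and 23.6 with IL-25 and 45.4, 68.3 and 73.7 with both (log2 difference 1.10, adjusted p = 0.0812), and Ifit1 0.390, 3.03 and 0.219 against 8.32, 16.5 and 10.1 (3.33, adjusted p = 0.0651). Neither gene's groups overlapped. Oas1a did not share that pattern, at 0.234, 4.29 and 0.547 against 1.75, 1.42 and 0.979 (log2 difference -0.26, adjusted p = 0.955). Isg20 had 6.39, 13.5 and 7.04 against 20.9, 14.4 and 31.4 (log2 difference 1.32, adjusted p = 0.168). Usp18 had 0.390, 0 and 0.328 against 3.74, 1.02 and 1.63 (log2 difference 3.09, adjusted p = 0.416), low values that did not overlap, and Lgals3bp 25.6, 18.4 and 17.6 against 11.3, 11.4 and 12.6 (-0.80, adjusted p = 0.433).

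IL-25 against base medium passed for 0 members (all genes 0.0728% higher, 0% lower), with 1 at an unadjusted p under 0.05 and 0 by DESeq2. IL-25 with CGRP against CGRP alone likewise passed for 0 (all genes 0.105% higher, 0.00809% lower), with 0 at an unadjusted p under 0.05 and 0 by DESeq2. The interaction of both agents passed for 0 members and for 0% of all genes in either direction, with 1 member at an unadjusted p under 0.05 and 0 by DESeq2. Median log2 differences of the 29 members were 0.22 for CGRP and 0.06 for CGRP beside IL-25, where all genes had 0.00 and -0.01.

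Irf7, Irf1, Isg15 and Ifi47, which fell in lamina propria cells, had no call in culture. Irf7 was 0.899, 4.19 and 5.00 in base medium and 7.83, 2.03, 7.10 and 4.78 with CGRP, and Irf1 41.0, 59.97 and 72.5 against 84.4, 31.9, 79.2 and 73.2, with overlap in both. Isg15 was low in every library, at 0.749, 1.18 and 1.57 in base medium and 0.675, 0.179, 0.628 and 0.492 with CGRP, where the groups did not overlap (log2 difference -1.23, adjusted p = 0.725). Ifi47 was 66.8, 91.4 and 98.1 against 65.3, 59.0, 52.1 and 64.9 (log2 difference -0.50, adjusted p = 0.402). Ifitm3 had 0.5996, 0.524 and 2.14 against 4.59, 3.71, 3.01 and 1.34 (log2 difference 1.48, adjusted p = 0.405), and Gbp3 6.15, 13.4 and 5.57 against 4.28, 0.538, 4.71 and 6.82 (-1.02, adjusted p = 0.490), both with overlap. For Stat2, Gbp2, Bst2 and the RNA sensor Ifih1 the log2 differences with CGRP were 0.50, 0.19, -0.45 and 0.11, and none passed. Of 29 pathway genes outside the members, Ifngr1, the ligand-binding chain of the interferon gamma receptor, rose with CGRP (log2 change 1.42, SE 0.27, adjusted p = 0.00438; 1.04 and adjusted p = 0.0812 in the presence of IL-25). Irf4, a factor that represses some interferon targets, rose with IL-25 in the presence of CGRP (log2 change 1.66, adjusted p = 0.0248).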

How the data were processed

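Small-intestinal cells were profiled with 10x single-cell libraries and cultured ILC2s with Smart-seq2, per the labels' protocols. The authors deposited 1 matrix of UMI counts per cell and 1 table of RSEM expected counts. bcl2fastq, Cell Ranger, Bowtie2, RSEM and the mm10 build are listed per the submitters' processing notes, without versions, and the annotation is not given in the sources used here. One Peyer's patch food allergy sample has no cells in the matrix used and was not analysed here.

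Cells were assigned to a type with at least 3 detected markers of 1 of 18 panels and at least 1 more than of any other, and no doublet caller was run. UMI counts were summed per type over libraries (lamina propria) or run dates (Peyer's patches) with at least 10 cells. Sums were tested with edgeR 4.0.16 (R 4.3.3) after filterByExpr and TMM scaling, with run date as covariate, at an adjusted p of 0.05. Expected counts were rounded and fitted in 1 model of 13 libraries. Replicate numbers did not mark pairs. DESeq2 1.42.0, other filters, scalings, gates and left-out libraries were alternatives. Intervals cover counting error only. The tests' code was checked on simulated data. The members and lists were chosen with earlier results of these data known. Named genes were the 10 members called in the most cell types of a comparison, the 10 with the lowest adjusted p in bulk, the 10 highest in level and 5 most peaked, and Irf7, Isg15, Ifitm3, Irf1, Stat2, Mx1, Gbp2 and Bst2; other called members are named after their values were seen. The result of 1 pathway gene outside the members is not reported here.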

Additional observations from a re-analysis of the deposited data

Results flagged for a closer look

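In chosen groups of 4 or 5 values, the gap between the most extreme value and its neighbour was divided by the range of the group (Dixon's ratio). The groups were Irf7, Isg15, Ifi27l2a, Bst2, Ifitm3, Usp18 and Irf1 in Peyer's patch pDC-like cells and Irf7 in the other Peyer's patch types. The 29 members that passed the bulk filter were added for the cultures with CGRP, and no other group was screened. Of these 58 groups, 7 had a value that stood apart, where chance gives about 1 in 20. In Peyer's patch pDC-like cells, Bst2 was lowest in run 4 in both conditions, at 2897 CPM in controls (nearest 4058) and 3600 in food allergy (nearest 4352), and Usp18 in food allergy was at 209 in run 3 (nearest 29.7). Irf7 in control germinal centre B cell-like cells was at 44.6 in run 4 (nearest 20.6). Among ILC2 cultures with CGRP, Ifi35, a partner of Nmi, was at 63.5 CPM in replicate 2 (nearest 41.8) and Ifi44 at 1.62 in the same library (nearest 0.09003), while the GTPase Irgm1 was at 67.0 in replicate 1 (nearest 37.7).

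The tissues differed in 4 food allergy effects by the interaction test, each more negative in the lamina propria. The differences of log2 changes were -1.27 for Irf7 and -1.42 for Ifi44 in pDC-like cells, and -1.51 in cDC1-like and -1.66 in plasma cell-like cells for Ifi27l2a. Tissue and run date cannot be told apart in these differences.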

How the results depend on the processing

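In the lamina propria, 23 of 127 members' pairs fell. DESeq2 gave 14 of 69 tested, no filter on low counts 36 of 321 and no run date term 12 of 100. Leaving out 1 library gave 16 to 26, while the replicate block kept 21 of the 24 calls. DESeq2 tested 17 of the 24 calls and kept 14. Calls over all genes went from 1511 to 722 with DESeq2, 2382 with no filter and 496 with no run date term. The count of pairs that rose, 1, was 0 with DESeq2, no run date term, the replicate block or no shared barcodes, 2 with a gate of 4 markers or a margin of 2, 4 with no filter, and 0 to 4 without 1 library. Irf7 in its 6 cell types, Irf1 and Ifit1 in ILC2-like cells, Ifi44 in pDC-like cells and Ifi27l2a in pDC-, cDC1- and plasma cell-like cells passed in every alternative that could be fitted.

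In Peyer's patches, the count of pairs that fell, 0, was 2 with no filter or with libraries in place of date sums, 1 without shared barcodes and 0 to 2 without 1 run. The count that rose, 1, was 0 with DESeq2, no run date term, cells of at least 1000 UMIs or a margin of 2 markers, 2 with a gate of 4 or of 2 markers, 3 with libraries, and 0 to 1 without 1 run. Calls over all genes of this tissue, in either direction, went from 408 to 105 with DESeq2 and 5 with no run date term. They were 988 with no filter, 875 with libraries and 60 to 750 without 1 run. The 4 differences between tissues became 2 to 7 without 1 library or run, where calls over all genes were not counted. Counts of members higher than other cell types in controls stayed within 1.5 times in all alternatives run.

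In the cultures, calls over all genes were not counted in the alternatives. For CGRP against base medium, 2 members passed, 0 with the replicate block, whose fit also left out the fourth CGRP library, and 0 to 3 without 1 library. Beside IL-25, 0 passed, 2 with DESeq2, 1 with no filter or with the groups of the contrast alone, and 0 to 2 without 1 library. The difference of Oas1a there, -0.26, turned to 0.47 with the replicate block and ranged from -0.74 to 1.75 without 1 library, the highest without IL-25 replicate 2. Replicate numbers did not pair the bulk samples, whose same-numbered deviations did not correlate throughout. The cause of these shifts was not tested. The gates with a margin of 2 or with 2 markers, the barcode check, and leaving out libraries for tissue differences and control levels were chosen after seeing the data. Low UMI sums limit most Ifit, Oas and sensor genes.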
